A study of Mus musculus with 6 samples.

Results

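The genes of tight and gap junctions were compared between differentiating and undifferentiated mouse ES cells. They comprised the claudins, the connexins, the junctional adhesion molecules with their relative Esam, the MARVEL-domain proteins Ocln, Marveld2 and Marveld3, and the plaque proteins Tjp1, Tjp3 and Cgn. Members were taken by gene name from the single-symbol probe sets of the array, and each gene was read at its brightest probe set, judged by the mean of the 6 arrays. This gave 44 of the 18193 genes measured, with 74 of the 45037 probe sets tested. There were 20 claudins, 14 connexins, 4 junctional adhesion molecules, 3 MARVEL-domain proteins and 3 plaque proteins. Jam2 was followed at all 5 of its probe sets.

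The differentiating group was 3 samples of the mouse ES cell line E14TG2a, kept for 3 days without leukaemia inhibitory factor (LIF) and sorted by FACS for cells positive for surface 5T4. The undifferentiated group was 3 samples of the same line kept in LIF at 1000 units per ml and sorted for 5T4-negative cells. LIF withdrawal and the 5T4 sort differed together between the groups, so they cannot be told apart, and all samples came from a single line. The replicates were not stated to be separate cultures, so the p-values measure the spread between these samples, which may be technical.

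Tight junctions seal the space between neighbouring epithelial cells. Claudins form the strands of the seal, Ocln and its MARVEL relatives sit within the strands, junctional adhesion molecules are immunoglobulin-type receptors beside them, and plaque proteins such as Tjp1 tie the strands to actin. Gap junctions are channels built of connexins through which ions and small molecules pass from cell to cell, and ES cells grow in tightly packed colonies that hold both kinds of contact.

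Array medians lay between 5.54 and 5.65 on the log2 scale of RMA, the method that made the values. The lower quartile was 4.26 on differentiating replicate 1 and 4.07 to 4.10 on the other 5 arrays. All 7 pluripotency genes checked had differentiating arrays below the undifferentiated arrays, as 12.8% of all genes did. Their summed linear signal was 16160 to 24364 in differentiating cells and 35786 to 45144 in undifferentiated cells. Markers of trophectoderm, primitive endoderm, endothelium and fibroblasts gave 0 genes that passed the test at the brightest probe set. The endoderm marker Dab2 had a log2 fold change of 1.96 there without overlap, and passed at 2 dimmer probe sets (1.30, limma adjusted p = 0.0937, and 1.13, 0.0990). Of 8 fibroblast markers, 4 were higher in differentiating cells without overlap, against 10.7% of all genes. The part of these markers in the junction values was not tested.

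Only 2 of the 44 junction genes passed the test at their brightest probe set, Cldn3 upwards and Gjb5 downwards. A gene passed at an adjusted p under 0.1 from limma, with adjustment over all 45037 probe sets, and was called when its log2 fold change was also at least 1 in size. Over all 18193 genes 0.797% passed upwards and 1.45% passed downwards, while 0.511% were called higher and 0.879% were called lower. Both Cldn3 and Gjb5 were called, which is 2.27% of the members in each direction and so a single gene each way. In these bulk samples fewer cells of a type and less RNA per cell cannot be told apart. The counts rested on few arrays: leaving out differentiating replicate 1 or undifferentiated replicate 2 gave 3 or 4 members that passed upwards (1.52% and 2.36% of all genes did), and leaving out the second or the third differentiating array or the third undifferentiated array gave 0 in both directions. With a weight fitted for each array 13 members passed upwards and 6 downwards (29.5% and 13.6%), against 10% and 9.67% of all genes. At an unadjusted p under 0.05 there were 14 members, 10 of them higher (22.7%, against 7.6% of all genes) and 4 lower (9.09%, against 9.6% of all genes).

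More members had higher than lower means in differentiating cells, and 42 of the 44 did not pass. The log2 fold change was positive in 30 members (68.2%, against 53.6% of all genes) and negative in 14, with a median of 0.15, against a median of 0.02 over all genes. A log2 fold change of at least 1 was found in 6 members (13.6%), against 2% of all genes, and of at most -1 in 2 members (4.55%), against 2.11% of all genes. The 3 differentiating arrays lay above all 3 undifferentiated arrays in 10 members (22.7%), against 10.7% of all genes, and below them in 3 members (6.82%), against 12.8% of all genes. The 10 were Cldn1, Cldn3, Cldn6, Cldn7, Cldn11, Gja1, Jam3, Marveld3, Cgn and Tjp1, and the 3 were Jam2, Gjb5 and Esam. An exact permutation test of 3 arrays against 3 cannot give a two-sided p below 0.1, so non-overlap alone carries no test. The counts describe the genes without a test of the list.

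**Figure D1:**
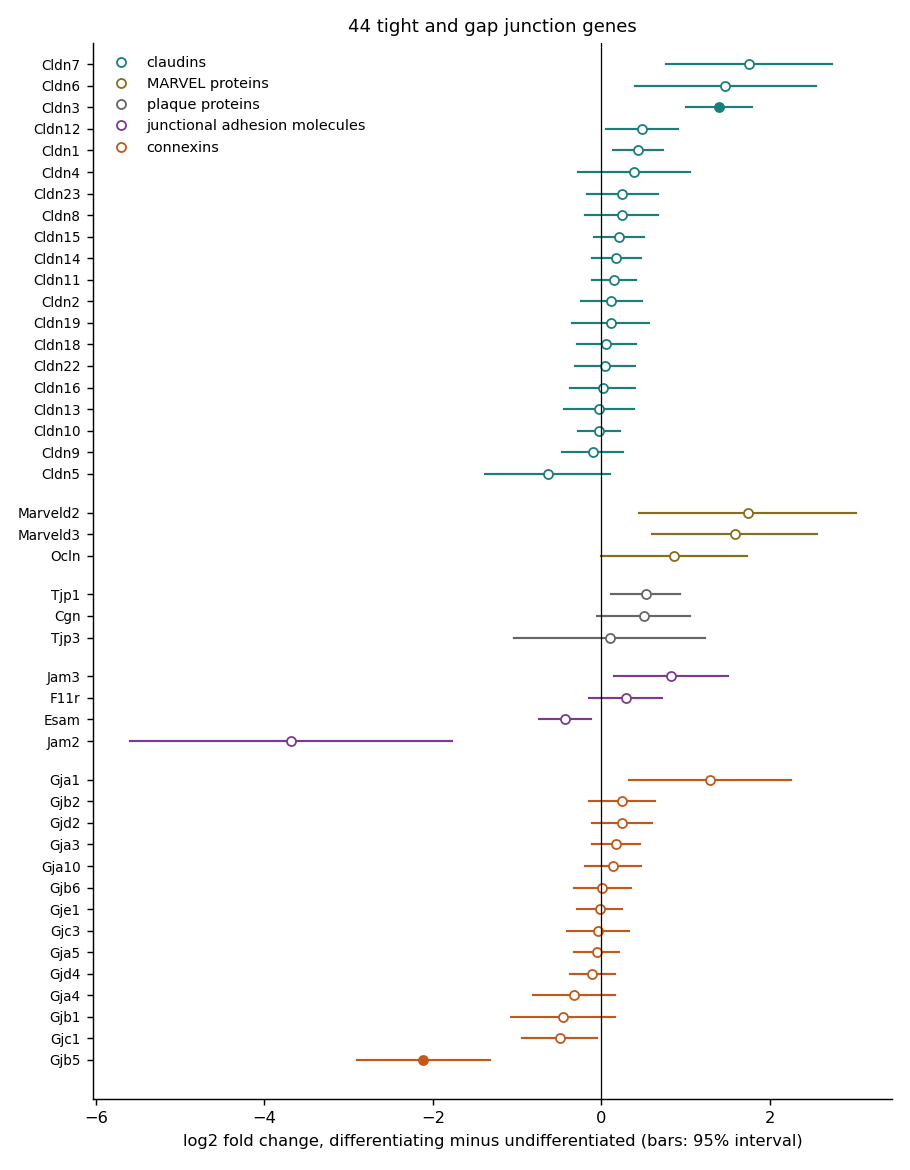
Log2 fold change, differentiating minus undifferentiated, of the 44 junction genes at their brightest probe set, grouped by family, with the 95% interval from limma as a bar. Filled points pass at an adjusted p under 0.1 (Cldn3 and Gjb5), and Jam2 has the lowest point, -3.69, with an open symbol.

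Signal strength split the members. A mean at or above the middle of all probe sets was reached by 18 members and not by the other 26, of which 7 lay below the 25th percentile of all probe sets. Among the 26 dimmer members 0 passed, against 0.341% of all dimmer genes upwards and 0.267% downwards, and their log2 fold changes ran from -0.64 to 0.44. Of these 26, 15 had positive changes (57.7%), against 65.2% of all dimmer genes. Among the 18 brighter members 15 had positive changes (83.3%), against 46.8% of all brighter genes, and 8 were higher without overlap (44.4%), against 11.1%. Detection calls were not used here, so dim readings may be background, and changes in them can be understated.

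Jam2 had the lowest log2 fold change of all members, and its differentiating arrays lay below the undifferentiated arrays at every probe set. Jam2 (JAM-B) is an adhesion molecule whose partner across the cell contact is Jam3. On its brightest probe set, 1449408_at, Jam2 had log2 values of 8.43, 6.40 and 4.90 in differentiating cells, against 10.26, 9.81 and 10.72 in undifferentiated cells. The mean was 6.57 ± 1.77 in differentiating cells and 10.26 ± 0.45 in undifferentiated cells (SD, n = 3 each), so the differentiating arrays were lower but spread widely. The log2 fold change was -3.69 ± 0.81 (SE), a 12.9-fold lower signal, and did not pass with limma (adjusted p = 0.119).

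Of the other Jam2 probe sets 3 did not pass. On 1431416_a_at the log2 values were 7.24, 5.23 and 4.05 in differentiating cells, against 9.65, 8.55 and 9.39 in undifferentiated cells (log2 fold change -3.69, limma adjusted p = 0.106). On 1431417_at they were 6.09, 4.39 and 4.17 in differentiating cells, against 9.27, 7.01 and 7.49 in undifferentiated cells (-3.04, limma adjusted p = 0.132). On 1419288_at they were 5.95, 4.87 and 5.18 in differentiating cells, against 6.35, 7.13 and 8.02 in undifferentiated cells (-1.83, limma adjusted p = 0.149). In each of these the groups did not overlap, and the adjusted p missed the threshold. The first passed without differentiating replicate 1 (adjusted p = 0.0394) or undifferentiated replicate 2 (0.097), the next without undifferentiated replicate 2 (0.0920) and the last without undifferentiated replicate 1 (0.0809). Of all probe sets 10.3% were lower without overlap, and 1.03% passed downwards. The probe sets read the same RNA samples and are not separate evidence of replication.

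The probe set 1436568_at fell. Its log2 values were 4.99, 4.27 and 3.58 in differentiating cells, against 7.22, 8.16 and 9.18 in undifferentiated cells. The log2 fold change was -3.91 ± 0.54 (SE), a 15.0-fold lower signal, with a 95% interval of -5.18 to -2.63 and an adjusted p of 0.0538 from limma. The pass was lost when differentiating replicate 2 (adjusted p = 0.29), differentiating replicate 3 (0.236) or undifferentiated replicate 3 (0.206) was left out. Leaving out differentiating replicate 1, the array with the highest Jam2 signal of its group, brought the brightest probe set to -4.61 (limma adjusted p = 0.0407). The mean of all 5 probe sets gave -3.23 (limma adjusted p = 0.0642).

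**Figure D2:**
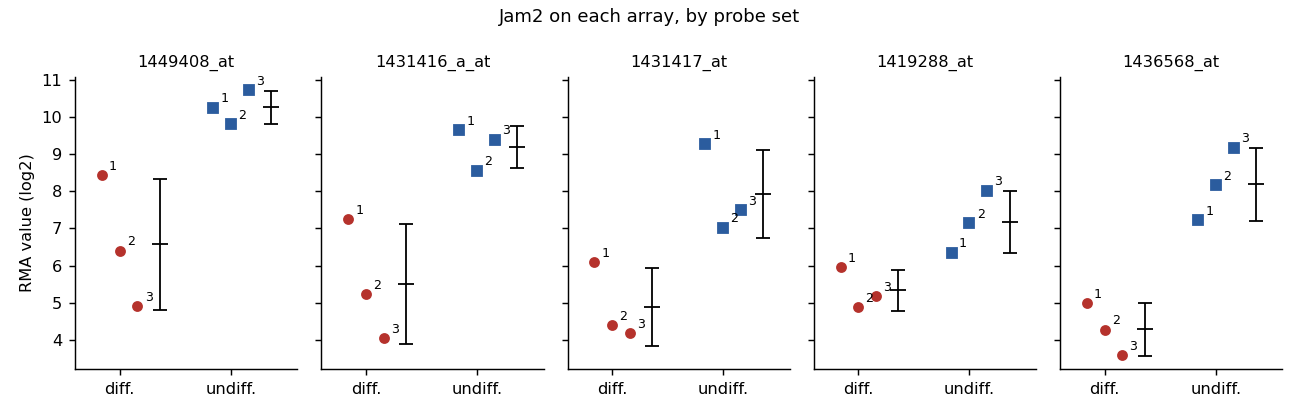
RMA log2 value of Jam2 at each of its 5 probe sets, ordered by mean signal, in differentiating (circles) and undifferentiated (squares) samples, with the replicate number beside each point and the mean ± SD at the right of each group. All differentiating points lie below all undifferentiated points in every panel, and differentiating replicate 1 is the highest of its group in each.

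Of the other junctional adhesion molecules 0 passed. Jam3, the JAM-C partner of Jam2, had log2 values of 7.49, 7.85 and 8.28 in differentiating cells, against 6.55, 7.46 and 7.13 in undifferentiated cells, a change of 0.82 ± 0.28 that did not pass (limma adjusted p = 0.271). The Jam3 groups came close without overlapping, and the second Jam3 probe set gave a log2 fold change of 0.06. F11r (JAM-A), the member of this family found in most epithelia, had log2 values of 10.25, 10.47 and 10.43 in differentiating cells, against 10.32, 10.24 and 9.72 in undifferentiated cells. Its groups overlapped, and the change of 0.29 had a 95% interval of -0.14 to 0.72.

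Esam is an adhesion molecule of endothelium and platelets. Its log2 values were 5.08, 4.93 and 4.95 in differentiating cells, against 5.37, 5.61 and 5.28 in undifferentiated cells, lower without overlap at a low signal (log2 fold change -0.43, limma adjusted p = 0.215). Endothelial markers had a summed linear signal of 209 to 283 in differentiating cells and 270 to 375 in undifferentiated cells, with 0 of 7 passing and Cdh5 and Emcn below the 25th percentile of all probe sets. Log2 fold changes were positive in 3 of these markers and negative in 4, with a median of -0.11 and a highest value of 0.22. Vwf had 3.84, 3.93 and 3.69 in differentiating cells, against 5.65, 4.13 and 5.20 in undifferentiated cells, lower without overlap (-1.17, limma adjusted p = 0.224), and Tek had a log2 fold change of -0.92 (limma adjusted p = 0.275). Their part in the Esam and Jam2 values was not tested.

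Cldn3 rose, and had the lowest adjusted p of the claudins. Cldn3 is a sealing claudin of many simple epithelia. Its brightest probe set, 1434651_a_at, had log2 values of 8.86, 9.38 and 9.04 in differentiating cells, against 7.75, 7.80 and 7.54 in undifferentiated cells. The lowest differentiating array stood above the highest undifferentiated array by more than the SD of either group, with means of 9.09 ± 0.27 in differentiating cells and 7.70 ± 0.14 in undifferentiated cells (SD, n = 3 each). The log2 fold change was 1.40 ± 0.16 (SE), a 2.63-fold higher signal, with an adjusted p of 0.0428 from limma. The adjusted p was 0.245 without differentiating replicate 2, 0.219 without differentiating replicate 3 and 0.206 without undifferentiated replicate 3, while the log2 fold change stayed between 1.25 and 1.51 over all arrays left out in turn.

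Of the 4 Cldn3 probe sets 3 passed, and in all 4 the groups did not overlap, while 0.573% of all probe sets passed upwards and 10% were higher without overlap. On 1451701_x_at the log2 values were 8.65, 9.64 and 9.14 in differentiating cells, against 7.73, 7.65 and 7.04 in undifferentiated cells (log2 fold change 1.67, limma adjusted p = 0.0823). On 1460569_x_at they were 8.42, 9.46 and 9.07 in differentiating cells, against 7.73, 7.43 and 7.05 in undifferentiated cells (1.58, limma adjusted p = 0.0897). The fourth, 1426332_a_at, read 6.89, 8.34 and 8.15 in differentiating cells, against 6.64, 6.57 and 6.05 in undifferentiated cells, and missed the threshold (1.38, limma adjusted p = 0.191), except without differentiating replicate 1 (0.0419). The x in a probe set name marks probes that can also match other transcripts, so those values are less certain to be Cldn3 alone. Both passes were lost when the second or the third differentiating array or the third undifferentiated array was left out (adjusted p from 0.289 to 0.342), and 1460569_x_at also missed the threshold without undifferentiated replicate 2 (0.104).

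Cldn7 and Cldn6 had log2 fold changes as high as that of Cldn3 but varied more between arrays. Cldn7, a claudin of basolateral membranes that binds Epcam, had log2 values of 9.58, 10.55 and 10.42 in differentiating cells, against 8.74, 8.99 and 7.57 in undifferentiated cells. The change of 1.75 ± 0.42 (SE), a 3.37-fold higher signal and the highest among the claudins, did not pass (limma adjusted p = 0.141). Cldn6, a claudin of early embryonic epithelia, had log2 values of 9.71, 10.45 and 10.54 in differentiating cells, against 8.71, 9.69 and 7.88 in undifferentiated cells. Differentiating replicate 1 of Cldn6 lay just above undifferentiated replicate 2, and the change of 1.47 ± 0.45 (SE) did not pass (limma adjusted p = 0.227). Without undifferentiated replicate 2, the highest undifferentiated array for both genes, Cldn7 and Cldn6 came to 2.03 (limma adjusted p = 0.0951) and 1.94 (limma adjusted p = 0.0634).

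Cldn4, which sits next to Cldn3 in the genome and with it binds a clostridial enterotoxin, had a smaller log2 fold change, and the difference between the genes was not tested. Its log2 values were 8.95, 9.41 and 9.02 in differentiating cells, against 9.08, 9.03 and 8.11 in undifferentiated cells. The groups overlapped, and the log2 fold change of 0.39 had a 95% interval of -0.28 to 1.05 (limma adjusted p = 0.613). Cldn12, an atypical claudin without the usual scaffold-binding tail, had a log2 fold change of 0.48 at its brightest probe set (limma adjusted p = 0.311), with overlapping groups.

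On their brightest probe sets the remaining claudins had log2 fold changes under 0.5 in size, apart from Cldn5. Cldn1, the barrier claudin of skin, had log2 values of 4.70, 4.61 and 4.92 in differentiating cells, against 4.27, 4.38 and 4.27 in undifferentiated cells (0.44, limma adjusted p = 0.196). A dimmer Cldn1 probe set, 1437932_a_at, passed with 4.18, 3.96 and 4.06 in differentiating cells, against 3.57, 3.36 and 3.39 in undifferentiated cells (0.63, limma adjusted p = 0.0949), a low signal below the 25th percentile of all probe sets. The pass held only when undifferentiated replicate 1 was left out, and was lost without any of the other 5 arrays (adjusted p from 0.118 to 0.346). Cldn5, the claudin of endothelial barriers, had the lowest change of the family, -0.64 (limma adjusted p = 0.442), with overlapping groups. In all, 16 of the 20 claudins had positive and 4 had negative log2 fold changes, with a median of 0.17. The positive share was 80%, against 53.6% of all genes, and many of these claudins were dim with changes near 0. Only 6 of the 20 reached the middle of all probe sets, and among all genes below it 65.2% had positive changes.

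The 300 bases around the RefSeq start, 250 before and 50 after it, are shown for Cldn3, Cldn6, Cldn7, Marveld2, Gja1 and Gjb5, the members with such a window whose log2 fold changes were over 1 in size, and for Cldn4 as the neighbour of Cldn3. Of the 44 members, all were found in RefSeq by gene ID with the same symbol, and 33 had such a window. Build GRCm38.p6 was used, and each run reads 5′ to 3′ along the gene. Capitals mark the E-box CACCTG, read as CAGGTG from the other strand, the letters that Snai and Zeb repressors are known to bind.
Cldn3, chr5:134985964-134986263, plus strand: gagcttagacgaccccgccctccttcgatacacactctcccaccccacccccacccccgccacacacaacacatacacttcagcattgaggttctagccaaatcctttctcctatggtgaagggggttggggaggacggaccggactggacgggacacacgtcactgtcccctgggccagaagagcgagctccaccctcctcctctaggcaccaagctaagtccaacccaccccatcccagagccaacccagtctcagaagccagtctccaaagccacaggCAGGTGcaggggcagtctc
Cldn4, chr5:134946885-134947184, minus strand: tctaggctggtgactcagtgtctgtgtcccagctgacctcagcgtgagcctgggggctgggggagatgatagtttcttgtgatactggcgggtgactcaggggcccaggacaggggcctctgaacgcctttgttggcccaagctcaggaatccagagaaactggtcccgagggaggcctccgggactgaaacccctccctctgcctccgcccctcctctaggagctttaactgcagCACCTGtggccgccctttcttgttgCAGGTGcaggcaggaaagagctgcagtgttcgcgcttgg
Cldn6, chr17:23679115-23679414, plus strand: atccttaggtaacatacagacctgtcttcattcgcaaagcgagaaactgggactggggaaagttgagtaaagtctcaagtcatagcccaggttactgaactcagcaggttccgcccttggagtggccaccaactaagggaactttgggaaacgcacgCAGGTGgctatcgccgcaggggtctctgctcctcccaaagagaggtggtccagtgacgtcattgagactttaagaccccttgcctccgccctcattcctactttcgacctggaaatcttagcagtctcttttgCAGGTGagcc
Cldn7, chr11:69965171-69965470, plus strand: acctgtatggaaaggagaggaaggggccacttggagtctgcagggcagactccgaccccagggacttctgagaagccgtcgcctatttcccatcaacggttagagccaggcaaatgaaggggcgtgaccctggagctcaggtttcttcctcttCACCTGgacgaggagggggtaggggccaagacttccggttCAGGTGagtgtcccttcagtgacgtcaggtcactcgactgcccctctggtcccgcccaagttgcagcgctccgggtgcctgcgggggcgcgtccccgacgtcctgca
Marveld2, chr13:100616895-100617194, minus strand: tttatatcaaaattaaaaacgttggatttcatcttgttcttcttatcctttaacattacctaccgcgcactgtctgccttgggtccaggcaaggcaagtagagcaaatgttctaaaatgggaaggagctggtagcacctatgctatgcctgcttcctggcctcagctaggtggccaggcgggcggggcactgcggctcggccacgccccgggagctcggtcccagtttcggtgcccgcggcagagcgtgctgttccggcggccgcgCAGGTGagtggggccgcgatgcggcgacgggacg
Gja1, chr10:56377050-56377349, plus strand: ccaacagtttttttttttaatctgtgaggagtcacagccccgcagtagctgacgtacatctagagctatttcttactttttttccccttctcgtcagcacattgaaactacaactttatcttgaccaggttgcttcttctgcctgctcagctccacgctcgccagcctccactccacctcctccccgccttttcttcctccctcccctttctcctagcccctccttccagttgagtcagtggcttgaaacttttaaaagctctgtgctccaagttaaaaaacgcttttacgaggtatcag
Gjb5, chr4:127358115-127358414, minus strand: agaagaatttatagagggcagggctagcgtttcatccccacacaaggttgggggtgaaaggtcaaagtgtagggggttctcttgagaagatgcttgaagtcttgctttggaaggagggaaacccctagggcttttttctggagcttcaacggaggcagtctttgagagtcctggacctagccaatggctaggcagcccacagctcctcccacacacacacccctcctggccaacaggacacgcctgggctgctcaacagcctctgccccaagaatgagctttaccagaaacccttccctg

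The E-box letters stood once each in the Cldn3 and Marveld2 windows, after the start, and at 2 places each in the Cldn4, Cldn6 and Cldn7 windows. The windows of Gja1, which had a higher mean in differentiating cells, and of Gjb5, which fell, held none. An alternative Cldn7 window held none either. Of the 33 members with a window, 14 held the letters in at least 1 window. Among these were members with small changes, such as Gja3, Gjb6 and Tjp3 with log2 fold changes of 0.17, 0.01 and 0.10. Over all windows of the members, 17 of 48 (35.4%) held CACCTG, against 20.2% of 32851 RefSeq windows of the same length. The STAT element TTCNNNGAA stood in 8.33% of member windows and 8.3% of all windows. The GC box GGGCGG was in 54.2% of member windows and 35.7% of all, the TATA box TATAAA in 14.6% and 13.6%, and the AP-2 element GCCNNNGGC in 29.2% and 16.6%. Each motif was counted on both strands without regard to overlap with another, and several windows belong to the same gene. A match is a description of letters and not a binding site. At their brightest probe sets Zeb1, Snai1, Snai2 and Zeb2 had log2 fold changes of -0.75, -0.31, -0.03 and 0.24. Their groups overlapped and they did not pass, and their part in the junction values was not tested.

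Several members lie side by side in the genome. Cldn4 and Cldn3 are adjacent protein-coding genes with log2 fold changes of 0.39 and 1.40, and Cldn6 and Cldn9 are adjacent with 1.47 and -0.10. Ocln and Marveld2, also adjacent, had 0.86 and 1.74. The differences between neighbours were not tested.

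**Figure D3:**
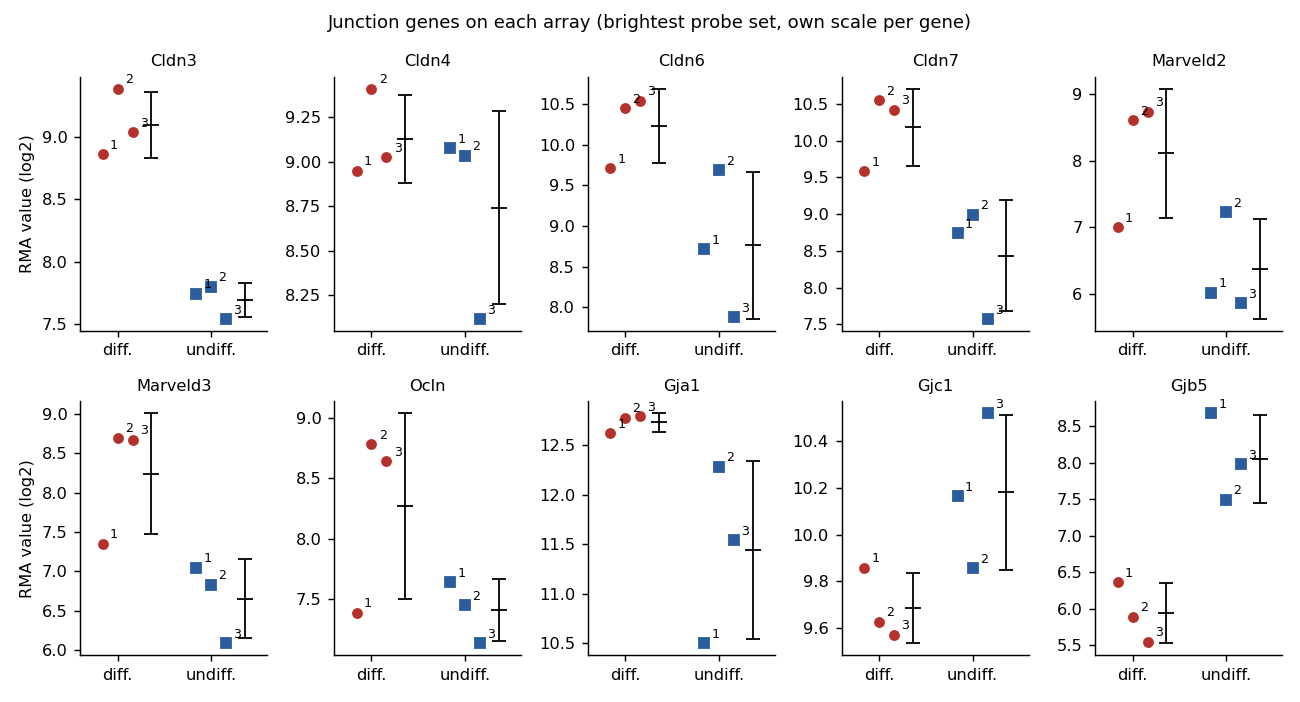
RMA log2 value of 10 junction genes at their brightest probe set in differentiating (circles) and undifferentiated (squares) samples, each on its own scale, with replicate numbers beside the points and the mean ± SD at the right of each group. The groups of Cldn3, Cldn6, Cldn7, Marveld3, Gja1 and Gjb5 are apart, while those of Marveld2, Ocln, Cldn4 and Gjc1 overlap.

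The MARVEL-domain proteins all had positive log2 fold changes, and 0 of 3 passed. Marveld2 (tricellulin), which concentrates where the corners of cells meet, had log2 values of 7.0, 8.60 and 8.73 in differentiating cells, against 6.02, 7.23 and 5.87 in undifferentiated cells. Its groups overlapped through differentiating replicate 1 and undifferentiated replicate 2, and the change of 1.74 ± 0.54 (SE) did not pass (limma adjusted p = 0.232). Marveld3 had log2 values of 7.35, 8.70 and 8.67 in differentiating cells, against 7.05, 6.83 and 6.09 in undifferentiated cells (1.58 ± 0.41, SE, limma adjusted p = 0.168). Its groups did not overlap, and without differentiating replicate 1 the change was 2.03 (limma adjusted p = 0.0645). Dimmer Marveld3 probe sets gave smaller changes that did not pass, 0.47 without overlap on 1451764_at and 0.13 with overlapping groups on 1444809_at.

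Occludin, the product of Ocln, was the first membrane protein of the tight junction to be identified. It had log2 values of 7.39, 8.78 and 8.64 in differentiating cells, against 7.64, 7.45 and 7.14 in undifferentiated cells. Differentiating replicate 1 alone lay within the undifferentiated range, and the change was 0.86 ± 0.37 (SE, limma adjusted p = 0.370), or 1.30 without that array (limma adjusted p = 0.0556). A second Ocln probe set, 1440220_at, gave 0.85 with groups that did not overlap (limma adjusted p = 0.215).

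Of the 3 plaque proteins 0 passed, and their log2 fold changes were below 1. Tjp1 (ZO-1), the scaffold that joins claudins to actin, had log2 values of 11.35, 11.39 and 11.64 in differentiating cells, against 10.70, 11.25 and 10.85 in undifferentiated cells. These did not overlap, but the change of 0.53 ± 0.17 (SE) did not pass (limma adjusted p = 0.249). Cgn (cingulin), which links the plaque to myosin, had 8.15, 8.22 and 8.29 in differentiating cells, against 7.86, 8.11 and 7.19 in undifferentiated cells (0.51, limma adjusted p = 0.410). For Tjp3 (ZO-3) the groups overlapped widely, and the change of 0.10 had a 95% interval of -1.03 to 1.23.

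Gjb5 fell. It encodes a connexin known from skin and trophoblast. Its log2 values were 6.37, 5.89 and 5.55 in differentiating cells, against 8.68, 7.49 and 7.98 in undifferentiated cells. Every differentiating array was lower than every undifferentiated array, with means of 5.94 ± 0.41 in differentiating cells and 8.05 ± 0.60 in undifferentiated cells (SD, n = 3 each). The log2 fold change was -2.11 ± 0.33 (SE), a 4.33-fold lower signal, with a 95% interval of -2.90 to -1.33 and an adjusted p of 0.0682 from limma. The pass was lost without differentiating replicate 2 (adjusted p = 0.314), differentiating replicate 3 (0.267) or undifferentiated replicate 3 (0.266). Trophectoderm markers, among which 0 of 8 passed, had a summed linear signal of 5934 to 11805 in differentiating cells and 1092 to 12941 in undifferentiated cells. The keratins Krt8 and Krt18 carried 95.3% to 97.4% of that sum on differentiating arrays and 74.4% to 96.2% on undifferentiated arrays, and the other 6 markers summed to 279 to 309 in differentiating cells and 252 to 496 in undifferentiated cells. Undifferentiated replicate 2 was the highest array of its group for both keratins, at 12.54 for Krt8 and 12.66 for Krt18. The part of these markers in the Gjb5 value was not tested.

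Gja1, the best known connexin of ES cells and of many other cell types, had higher values in differentiating cells at all 6 of its probe sets, and 0 passed. The brightest, 1437992_x_at, had log2 values of 12.62, 12.78 and 12.79 in differentiating cells, against 10.50, 12.28 and 11.54 in undifferentiated cells. The differentiating arrays were close together while the undifferentiated arrays spread over more than a log2 unit, and the groups did not overlap. The change of 1.29 ± 0.41 (SE), a 2.45-fold higher signal, did not pass (limma adjusted p = 0.237). Over the 6 probe sets the log2 fold change ran from 0.69 to 1.67, and the groups did not overlap in any, while 10% of all probe sets were higher without overlap. The brightest and others of the 6 are marked x, for probes that can also match other transcripts. Without that mark, 1415800_at and 1415801_at gave 1.28 and 1.67. The 6 probe sets read the same RNA samples and are not separate evidence of replication. Without undifferentiated replicate 2 the brightest probe set came to 1.71 (limma adjusted p = 0.0630).

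Gjc1, a connexin present in ES cells and early heart, had log2 values of 9.86, 9.63 and 9.57 in differentiating cells, against 10.17, 9.86 and 10.52 in undifferentiated cells. The groups met at differentiating replicate 1 and undifferentiated replicate 2, and the change was -0.50 ± 0.19 (SE, limma adjusted p = 0.316). Of the 14 connexins 6 had positive and 8 had negative log2 fold changes, with a median of -0.03. Gja1 was the highest and Gjb5 the lowest. Between them, apart from Gjc1, lay Gjb1 at -0.45 and Gja4 at -0.33 at the low end and Gjb2 at 0.25 at the high end, all with overlapping groups.

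The arrays of a group differed from each other in a like way over these genes. In all 8 members with a log2 fold change of at least 1 in size, differentiating replicate 1 was the array of its group nearest to the undifferentiated mean, as it was in 70.8% of the 747 genes with changes of that size. Undifferentiated replicate 2 was nearest to the differentiating mean in 7 of the 8, as it was in 73.5% of those genes. Among genes of all sizes of change in the brighter part, differentiating replicate 1 was nearest in 16 of 18 members (88.9%), against 36.9% of 11458 genes, and undifferentiated replicate 2 in 12 of 18 (66.7%), against 46.3%. These shares carry no test.

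**Figure D4:**
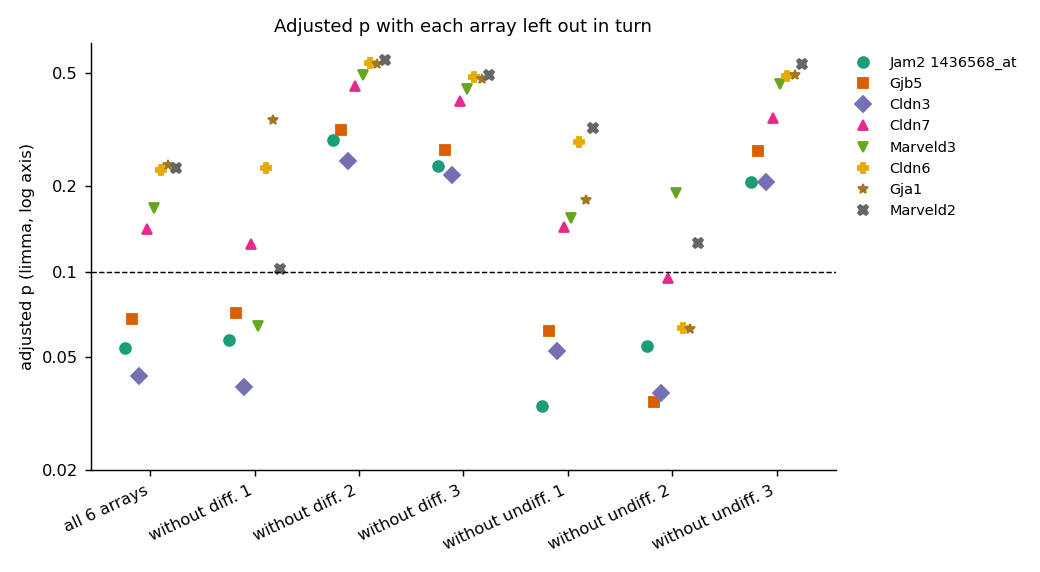
Adjusted p from limma (log axis) for 8 junction probe sets with all 6 arrays and with each array left out in turn, with a dashed line at 0.1. Jam2 1436568_at, Gjb5 and Cldn3 lie under the line except in the columns without the second or the third differentiating array and without the third undifferentiated array.

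Companion genes of the same structures were set beside the members. For every list below, the values over all genes were 0.797% passing upwards, 1.45% passing downwards and a median log2 fold change of 0.02. Of 28 measured scaffold and polarity genes of the tight junction 1 passed, upwards, and the list had a median log2 fold change of 0.20. It was Mpdz, a many-domain scaffold that binds claudins, with log2 values of 8.33, 8.92 and 9.00 in differentiating cells, against 7.16, 7.88 and 7.48 in undifferentiated cells (1.25, limma adjusted p = 0.0972). A second Mpdz probe set also passed (1.09, limma adjusted p = 0.0950). With the second or the third differentiating array, or the first or the third undifferentiated array, left out the first probe set gave an adjusted p between 0.125 and 0.379. The largest changes below the threshold were those of Patj, a related scaffold (1.65, limma adjusted p = 0.183), and Amot, which binds Patj (1.64, limma adjusted p = 0.268), and without undifferentiated replicate 2 both came to an adjusted p of 0.02.

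Among 12 other membrane proteins of tight and tricellular junctions and pannexins, 1 passed and the median was 0.26. Lsr, an angulin that brings Marveld2 to tricellular contacts, rose, with log2 values of 9.47, 9.63 and 9.44 in differentiating cells, against 8.73, 9.04 and 8.67 in undifferentiated cells (0.70, limma adjusted p = 0.0988). The pass held only when undifferentiated replicate 2 was left out, and was lost without any other array (adjusted p from 0.128 to 0.388). Its relative Ildr1 had -1.0 (limma adjusted p = 0.214), or -1.31 without undifferentiated replicate 2 (limma adjusted p = 0.0613). Tmem47, a claudin-like membrane protein, had 1.37 with overlapping groups (limma adjusted p = 0.278). Cxadr had 1.03, also with overlapping groups (limma adjusted p = 0.374).

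Of the 20 adherens junction and desmosome genes 0 passed, and the median was 0.13. Cdh1 (E-cadherin), the adhesion receptor of ES cell colonies, had log2 values of 11.42, 11.96 and 12.09 in differentiating cells, against 11.69, 11.59 and 11.17 in undifferentiated cells (0.34, limma adjusted p = 0.566). The groups overlapped. Cdh2 (N-cadherin) and Vcl (vinculin) had the largest changes, 1.12 and 1.02, also with overlapping groups. Without undifferentiated replicate 2 they came to 1.61 (limma adjusted p = 0.0536) and 1.46 (limma adjusted p = 0.0322).

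Of 15 regulators of epithelial junction genes 1 passed upwards and 1 downwards, with a median log2 fold change of -0.03. Esrp1, an epithelial splicing factor, rose, with log2 values of 9.24, 9.87 and 9.95 in differentiating cells, against 8.34, 8.81 and 8.16 in undifferentiated cells (1.25, limma adjusted p = 0.0953). Grhl1, a grainyhead-like transcription factor of epithelia, fell, with 6.08, 6.20 and 6.14 in differentiating cells, against 6.78, 6.69 and 6.72 in undifferentiated cells (-0.59, limma adjusted p = 0.0854). Its relative Grhl3 had the largest change, with 5.96, 5.67 and 5.26 in differentiating cells, against 9.40, 6.87 and 8.14 in undifferentiated cells, lower without overlap but not past the threshold (-2.51, limma adjusted p = 0.134). Klf5, a factor of ES cells and epithelia, had -1.37 (limma adjusted p = 0.109), and an adjusted p of 0.0910 or 0.0557 without differentiating or undifferentiated replicate 1. Leaving out the second or the third differentiating array, or the first or the third undifferentiated array, took the passes of Esrp1 (adjusted p from 0.132 to 0.377) and Grhl1 (0.114 to 0.342), and Grhl1 missed at 0.100 without undifferentiated replicate 2. Grhl3 came to -3.14 without that array (limma adjusted p = 0.0340).

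**Figure D5:**
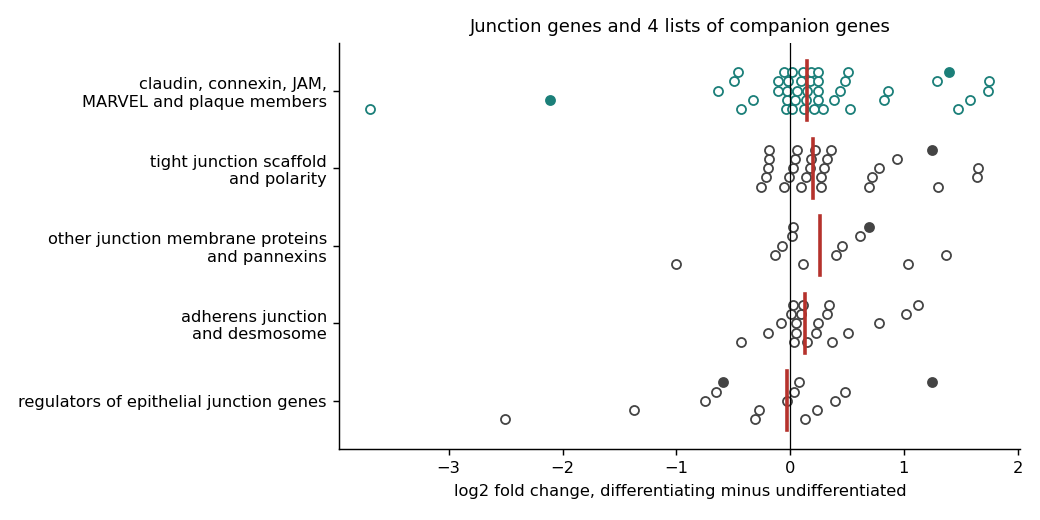
Log2 fold change, differentiating minus undifferentiated, of each gene at its brightest probe set, for the 44 junction genes and 4 lists of companion genes, with a vertical bar at each median. Filled points pass at an adjusted p under 0.1. The medians run from -0.03 to 0.26, and points spread further to both sides in the junction genes than in any list.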

How the data were processed

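RNA of 6 sorted E14TG2a samples had been hybridised to Affymetrix mouse arrays. The deposited log2 values, 1 column per array, came from RMA as run by the authors with the affy library of Bioconductor. That method takes off background, brings the arrays to a common distribution and joins the probes of a set into a single value. The version of affy is not given in the sources here. RMA shares information between the arrays, so a value depends in part on the other 5 arrays. Labels tied each of the 6 columns to a sample, and 0 columns were identical. No measure of depth applies, and precision is limited by 3 arrays per group.

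The table has 45101 probe sets, of which 64 array controls were not tested. Of the 45037 tested, 34945 carry 1 symbol in the platform annotation, 932 carry several and 9160 carry none, and the last kinds were tested but not named. One model was fitted over all of them with limma 3.58.1 in R 4.3.3 (lmFit, then eBayes with 2.93 prior degrees of freedom, two-sided, Benjamini-Hochberg adjustment). The methods name no block, and none was used in the main fit. The thresholds, adjusted p under 0.1 and log2 fold change of at least 1, are those of the methods. The steps were also run on simulated arrays with known changes and independent noise. Those arrays had no shared array effects, so that run cannot show how such effects bear on the changes here.

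The members, the companion and marker lists and the tests were chosen with earlier results of these data known. Values of every array are given for Jam2, for members that pass or whose groups do not overlap with a log2 fold change of at least 1, and for members known in ES cells or epithelium. Other members are given by family. Companion genes are named where they pass or have the largest changes. Cdh1, Cldn12, Cgn, Esam, Snai1, Snai2, Zeb1, Zeb2 and the markers Dab2, Vwf, Tek, Krt8 and Krt18 were named after their values were seen. Promoter windows and gene order are from RefSeq (GRCm38.p6). Alternative fits used the replicate number as a block, only probe sets from the 25th percentile of brightness up, values normalized by quantile again or centred on each array's median, a trended and robust variance, weights per array, 5 arrays at a time, a threshold of 0.05 on the adjusted p, or the mean over a gene's probe sets. Figures were drawn with matplotlib 3.10.9.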

Additional observations from a re-analysis of the deposited data

How the results depend on the processing

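All values come from limma. There were 866 alternative values for the members, the named companion genes and the dimmer Cldn1 and Cldn3 probe sets. Of these 764 kept their side of the threshold, and 57 lost and 45 gained the pass. Most of the 866 belong to genes that did not pass in the main fit, so keeping a side mostly meant still not passing. The 57 losses all came from the few that passed. The dimmer Jam2 probe sets are not in this count and are given below. A change of direction with a pass in either fit was found in 0. Changes of direction without a pass are among the 764, as for Tjp3, which ran from -0.29 to 0.61 with arrays left out. With 3 arrays per group, 3 of the 6 arrays decided most passes: differentiating replicate 2, differentiating replicate 3 and undifferentiated replicate 3, without which 0, 3 and 1 probe sets passed in all (4129 had an unadjusted p under 0.05 without the first of these). The table holds no detection calls, so brightness alone limits what the dim members can show. No scaling moved the median of all genes by more than 0.1.

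Array weights gave 694 probe sets called higher and 742 called lower, against 148 and 276 in the main fit, and an adjusted p under 0.05 gave 23 and 77. With each array left out in turn these counts ran from 0 to 563 and from 0 to 494. Junction genes passing upwards numbered 13 with array weights (called, 7), where 7174 of 45037 probe sets passed in all, and ran from 0 to 4 with arrays left out (called, 0 to 4). Those passing downwards numbered 2 with a trended robust variance, 6 with array weights, 0 at an adjusted p under 0.05, 2 with the mean of all probe sets and 0 to 2 with arrays left out. Called lower were 2, 2, 0 and 2 under those settings, and 0 to 2 with arrays left out. Members whose differentiating arrays lay below numbered 5 after median centring (11.4%, against 15.6% of all genes) and 3 to 10 with arrays left out (the 10 are 22.7%, against 19.5% of all genes, without differentiating replicate 1). Those above numbered 7 after median centring (15.9%, against 7.96% of all genes), fewer than the 10 of the main fit. With arrays left out they numbered 12 to 15 (27.3% to 34.1%, against 13.7% to 18.7%), where fewer arrays make non-overlap easier for every gene. The median log2 fold change of the members ran from 0.08 to 0.19 with arrays left out.

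For Jam2, 1449408_at passed with a trended robust variance (-3.69) and array weights (-4.09), and ran from -4.61 to -2.85 with arrays left out. Probe set 1431416_a_at passed with the dimmest 25% left out and a trended robust variance (-3.69 in both) and with array weights (-3.99), and ran from -4.56 to -2.96. Array weights also brought 1431417_at (-3.09) and 1419288_at (-2.52) past the threshold, and with arrays left out these ran from -3.65 to -2.37 and from -2.24 to -1.41. Probe set 1436568_at (-3.91) missed an adjusted p threshold of 0.05, and ran from -4.39 to -3.41.

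In the companion lists, scaffold and polarity genes passing upwards numbered 0 after median centring, at an adjusted p under 0.05 and with the mean of all probe sets, 7 with array weights (2 downwards) and 0 to 5 with arrays left out (0 downwards). Other membrane proteins numbered 0 under the same 3 settings, 4 with array weights (1 downwards) and 0 to 1 in each direction with arrays left out. Adherens junction and desmosome genes numbered 2 upwards and 1 downwards with array weights, and 0 to 3 upwards and 0 downwards with arrays left out. Regulators passing upwards numbered 0 after median centring and at an adjusted p under 0.05, 2 with array weights and 0 to 1 with arrays left out. Those passing downwards numbered 2 with the dimmest 25% left out and after median centring, 4 with array weights, 0 at an adjusted p under 0.05 and 0 to 2 with arrays left out. Of all genes 10% passed upwards and 9.67% downwards with array weights, and 0% to 2.36% and 0% to 2.31% with arrays left out. The causes of the shifts in these lists were not tested.

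The labels do not say whether same-numbered samples were paired. Deviations of same-numbered arrays from their group means correlated at 0.21, -0.11 and 0.11 for numbers 1, 2 and 3. For arrays of unlike number the correlations ran from -0.31 to 0.32, so these values cannot decide whether the samples were paired. With the replicate number as a block, 653 probe sets passed, against 720 without it, with 202 called higher and 312 called lower. The block left 1 junction gene passing in each direction and a member median of 0.15. It brought Jam2 1431416_a_at (-3.69) and 1431417_at (-3.04) past the threshold, left 1449408_at (-3.69), 1419288_at (-1.83) and 1436568_at (-3.91) on their side, and gave 0 other membrane proteins and 0 regulators in either direction.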
